A study of Mus musculus with 2 samples.

Results

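Phospholipase B and the phospholipases A2 were compared in intestinal RNA between mice labelled deficient in Gpcpd1 and mice labelled wild type. The 10 genes described are Plb1, Pla2g1b, Pla2g2a, Pla2g2f, Pla2g4a, Pla2g5, Pla2g6, Pla2g10, Pla2g12a and Pla2g12b, of 26582 gene names on the array. They were chosen by gene name, with the knockout over wild type ratios of these same arrays known, and every one of their 15 probes was kept. The ratios of these genes are therefore a description and carry no test. Both groups were male mice of 20 weeks on a normal diet, and they differ in the labels by genotype alone, gut-specific GDE5 (Gpcpd1) deficient or wild-type. A number of 5 mice stands in the series' design text, without a word on pooling. The strain, the Cre line or promoter and the stretch of intestine sampled are not named by the labels. The genotypes were hybridised against each other on 2 Agilent arrays with the dyes swapped, the knockout-labelled RNA in Cy3 on the first (replicate 1) and in Cy5 on the second (replicate 2).

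Phospholipases A2 cut the fatty acid from the middle position of a phospholipid and leave a lysophospholipid. Secreted members work outside the cell, in the gut lumen among other places, while cytosolic members work on the membranes of the cell itself. Phospholipase B sits in the brush border of enterocytes and can take off both fatty acids, so that phosphatidylcholine ends as glycerophosphocholine. Glycerophosphocholine is the substrate of GDE5, the phosphodiesterase encoded by Gpcpd1 that releases choline from it.

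Each ratio rests on a probe of 60 bases, and the first 30 bases of the probes on which the results turn are shown, as the authors' deposited scanner files give them. The Plb1 probes are shown because their values differ, and the Pla2g5 and Pla2g2a probes because they come from neighbouring genes. The Pla2g4a pair is shown because its members follow opposite dyes under most of the processing. No base is capitalised, since no motif or seed is marked. Positions are those of the files on mm9, and exon and UTR positions were not used here.
Plb1, A_52_P686218: ggcctggcagttggcatccttggagtgatg
Plb1, A_52_P311519: cgccagtgacttgtgtgacttctgcacgga
Plb1, A_51_P108031: aggtacatggctgtcatgttcagtgtgagc
Plb1, A_51_P238803: ctcaaaggaaaatgttctaaagaatgttga
Pla2g5, A_52_P94983: aatgtctgtctatttttcaccgagttaggg
Pla2g2a, A_51_P256632: taccccaacatgttttgcaaagggaagaag
Pla2g4a, A_51_P402760: aatttctgtgctgggatgatcaagccattt
Pla2g4a, A_52_P660648: gatgtacttcaacacactgaacaacattga
Over their full length, 13 of the 15 member probes shared no run of 16 bases, on either strand, with a probe of another gene name. The other two, Plb1 A_52_P311519 and the Pla2g12b probe, shared 1 such run each, with a probe of Arl10 and of Arhgef3.

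Spots well above background made up 69.3% to 76.1% of all gene spots over both genotypes and both arrays, and 0 spots were saturated. The ratio is the log2 of knockout-labelled RNA over wild-type-labelled RNA after background correction and loess, and each mean ± SD is over both arrays (n = 2). A probe was counted as measured when at least one genotype was well above background on each of the arrays, the same one both times, which left 29047 probes. The number of arrays limits the precision, and since nothing in the labels tells whether separate extracts were used for the arrays, the spread between them may be technical. Across the measured probes the ratios of the arrays had a Pearson r of -0.38 and a Spearman rho of -0.41, and 63.9% of the probes had opposite signs, so that many probes followed the dye and not the genotype. Gpcpd1 did not follow its label. Its 4 probes had mean ratios of 0.47 ± 0.25, -0.13 ± 0.43, 0.62 ± 0.08 and 0.68 ± 0.56, with 3 above 0. The deleted part of the gene is not given, so these probes may lie outside it and check nothing, and directions below are those of the labelled RNA.

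Of the 15 member probes, 12 were measured, and they cover 9 of the 10 genes. One Plb1 probe was at least 1.5-fold higher on both arrays in the knockout-labelled RNA, as were 35 of all measured probes (0.12%). One Pla2g5 probe was at least 1.5-fold lower on both, as were 14 of all measured probes (0.0482%). At any size, 2 member probes were higher on both arrays, against 17.4% of all measured probes, and 5 were lower on both, against 18.8%. The remaining 5 member probes had opposite signs, 3 of them with Cy3 brighter on both arrays and 2 with Cy5 brighter on both. The median ratio of the 12 probes was -0.06, beside -0.01 for all measured probes, and 10 of the 12 lay within 0.30 of 0. None of these counts is evidence about the genes, since this contrast was known when they were chosen.

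**Figure D1:**
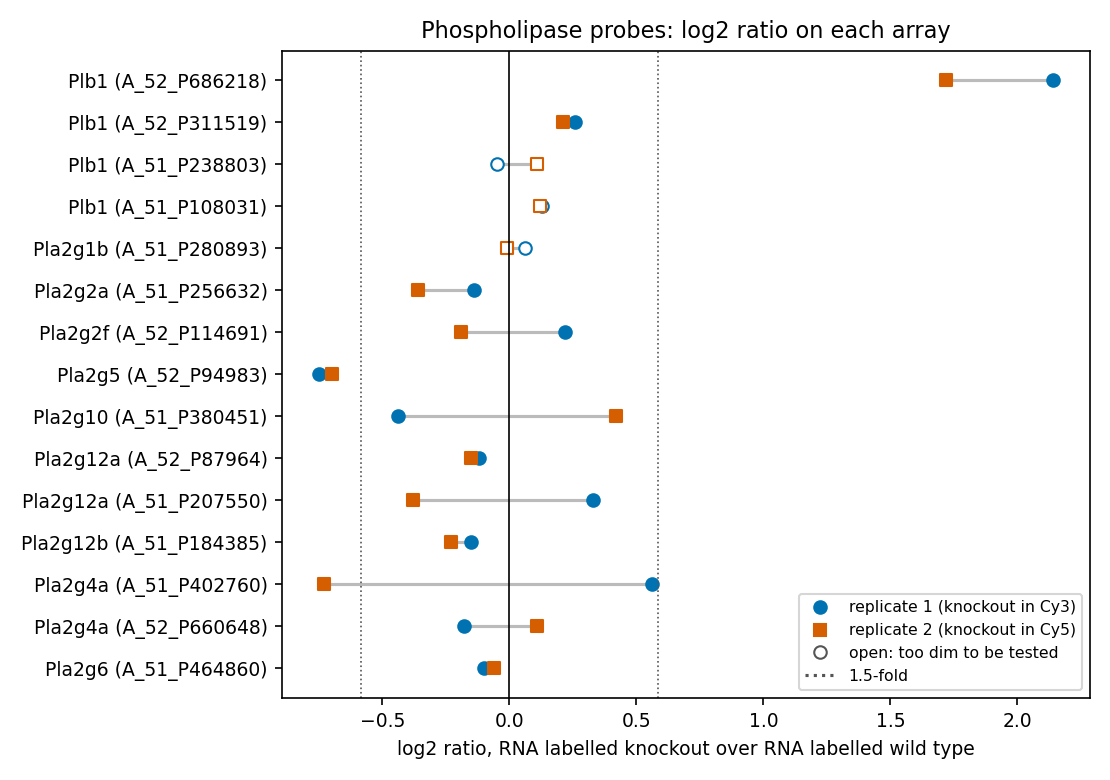
Log2 ratio of knockout-labelled RNA over wild-type-labelled RNA for the 15 member probes, one row per probe, with circles for replicate 1 and squares for replicate 2, joined by a line. Only the Plb1 probe at 2.14 and 1.72 and the Pla2g5 probe at -0.75 and -0.70 lie beyond the dotted 1.5-fold lines on both arrays, and the longest line between arrays on both sides of 0 belongs to Pla2g4a. Open symbols are the 3 probes too dim to be tested.

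Plb1, the brush border phospholipase B, had the highest ratio among the members. Its probe A_52_P686218 (chr5:32666473-32666532, mm9) had an uncorrected mean signal of 1051 and 938 in the knockout-labelled RNA and of 201 and 328 in the wild-type-labelled RNA, in replicates 1 and 2. After normalization these were log2 intensities of 9.99 and 10.04 against 7.85 and 8.33. Both knockout values lie above both wild-type values, whichever dye they carried. How many of all measured probes keep the genotypes apart like this was not counted. The Pla2g6 probe does so too, in the other direction and at a mean ratio of -0.08, so the order by itself marks no large difference. The log2 ratios were 2.14 and 1.72, with a mean of 1.93 ± 0.30, a 3.81-fold difference. By the smaller of its ratios on the arrays, this probe ranked 4 among all measured probes on the higher side. The scanner software's own ratios for the same spots were 2.27 and 1.99, with software errors of 0.29 and 0.27. The means over all other processing lay between 1.66 and 2.15, the lowest with marked outlier spots kept, where the ratios were 2.14 and 1.19.

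The other 3 Plb1 probes were near background, and none of them comes close to this ratio with an offset of 50 in the background correction. A_52_P311519 has ends 595 bases apart on the genome (chr5:32630832-32631426), more than its 60 bases, and was well above background on both arrays for the knockout-labelled RNA and on 0 for the wild-type-labelled RNA. Its log2 ratios were 0.26 and 0.21, with a mean of 0.24 ± 0.04. The wild-type side is not well above background, so the size of the difference is uncertain. A floor on the wild-type side at the dimmest signal well above background left it at 1.18-fold. This is the plain ratio of the probe's own normalized values and not a bound. The value depends on how background is treated: the mean was 1.01 with an offset of 0 and 1.62 ± 0.41 by the scanner software, whose errors for the spots were 0.46 and 0.51.

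A_51_P108031 (chr5:32595647-32595706) was well above background in 1 channel only, the knockout-labelled RNA of replicate 1, and was not tested. Its ratios were 0.13 and 0.12 here and 1.83 and 1.23 by the software, with errors of 0.86 and 0.58. A_51_P238803 (chr5:32667933-32667992) was well above background only in the Cy3 channel, which held a different genotype on each array. Its ratios were -0.05 and 0.11 here and 0.33 and 0.00 by the software. Of the 4 Plb1 probes, only the bright one was well above background for both genotypes, and the signs of the others rest on signals near background.

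**Figure D2:**
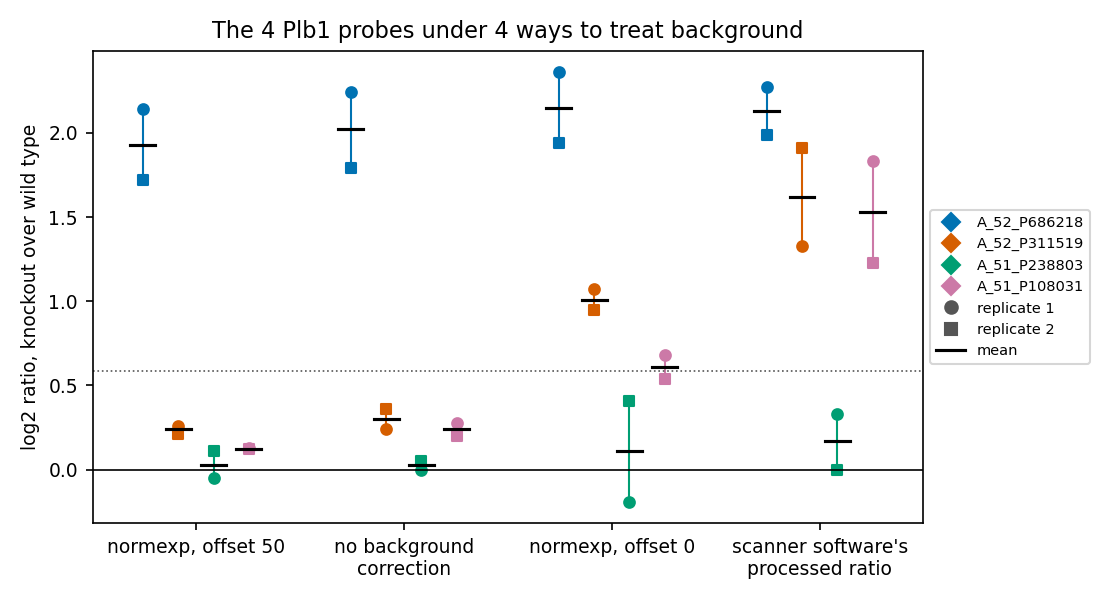
Log2 ratio of the 4 Plb1 probes (colours) under 4 treatments of the background, with circles for replicate 1, squares for replicate 2 and black bars for their mean, and the dotted line at 1.5-fold. The bright probe stays between 1.72 and 2.36 on each array, while A_52_P311519 goes from a mean of 0.24 to 1.62 and A_51_P238803 has means of 0.03 to 0.17.

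Phospholipase B is carried by absorptive enterocytes, and their markers were read beside it. Of 13 brush border genes, all of them measured, 5 were higher on both arrays, 3 lower on both and 5 opposite, with a median ratio of -0.02. Their summed normalized intensity was 659000 and 661000 in the knockout-labelled RNA and 613000 and 623000 in the wild-type-labelled RNA. Within the list, Lct (lactase) had a ratio of 1.41 ± 0.61, Fabp1 (a fatty acid carrier of the proximal gut) 1.28 ± 0.01 and Fabp2 (its partner along the small intestine) 0.70 ± 0.35. The 3 lower ones, named after their values were seen, were Sis (sucrase-isomaltase) at -0.15 ± 0.16, Vil1 (villin) at -0.06 ± 0.07 and Alpi (intestinal alkaline phosphatase) at -0.06 ± 0.06. Lct and Fabp1 also stand in a list of 9 proximal small intestine genes, 7 of them measured, with 4 higher on both arrays, 1 lower and 2 opposite, and a median of 0.13. Gip, also of the proximal list, had a ratio of 0.44 ± 0.16. The lower one, named after its values were seen, was Slc40a1 (the iron exporter ferroportin), with a ratio of -0.34 ± 0.30. The summed intensity of that list was 17100 on each array in the knockout-labelled RNA and 12800 and 11700 in the wild-type-labelled RNA, and Gata4 and Pdx1 were not well above background. Of 8 distal small intestine and colon genes, 6 were measured, with 1 higher and 1 lower on both arrays and summed intensities of 17200 to 26300 against 18800 to 24900. The lower one was Fgf15, at -0.49 ± 0.23, and the higher one Aqp8, at 0.06 ± 0.05. The part of gut position or cell makeup in the Plb1 ratio was not tested, and in whole tissue fewer cells of a type and less RNA per cell cannot be told apart.

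Pla2g5, a secreted phospholipase A2 that acts well on phosphatidylcholine, was the member with the lowest ratio. Its one probe, A_52_P94983 (chr4:138355365-138355424, minus strand), had an uncorrected mean signal of 1217 and 1063 in the knockout-labelled RNA and of 1833 and 2173 in the wild-type-labelled RNA. The normalized log2 intensities were 10.19 and 10.25 against 10.94 on both arrays. Every wild-type value is higher than every knockout value on either scale, an order that was not counted over all measured probes. It also holds for Pla2g6, at a mean ratio of -0.08, and so does not set Pla2g5 apart. The log2 ratios were -0.75 and -0.70, with a mean of -0.72 ± 0.04, so that the signal was 1.65-fold lower. The probe ranked 11 among all measured probes on the lower side. The scanner software gave -0.79 and -0.74, with errors of 0.22 and 0.21, and the means over all other processing lay between -0.77 and -0.71.

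**Figure D3:**
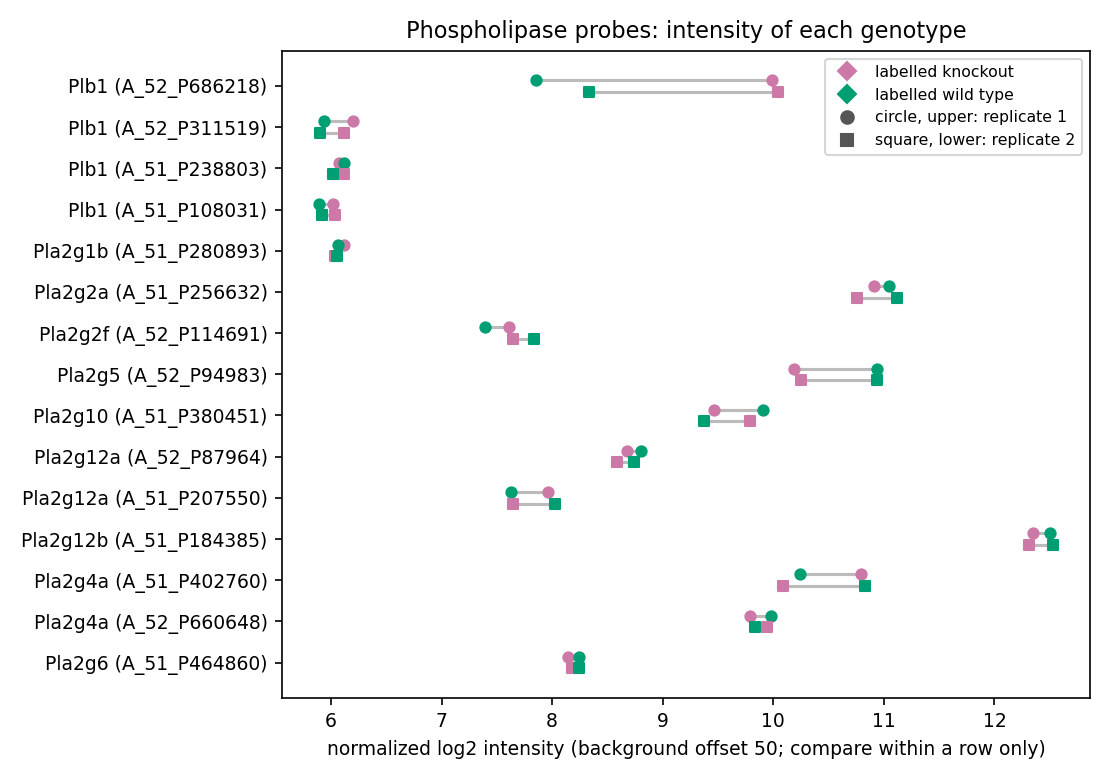
Normalized log2 intensity of each genotype for the 15 member probes, with circles for replicate 1 above squares for replicate 2 and a line between the genotypes of one array. Values are to be compared within a row only, since probes differ in how they bind. The genotypes are furthest apart in the same order on both arrays for Plb1 A_52_P686218 and for Pla2g5, and several other probes keep one order with smaller gaps. Among the measured probes they change places between arrays for Pla2g4a, Pla2g10, Pla2g2f and Pla2g12a A_51_P207550.

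Pla2g5 lies in a row of secreted phospholipase A2 genes on chromosome 4, all 6 of which have a probe. In the order of mm9, from position 138300427 to 138438422, these are Pla2g2c, Pla2g2f, Pla2g2d, Pla2g5, Pla2g2a and Pla2g2e. Pla2g2c had ratios of -0.31 and 0.12, and Pla2g2d, which is known from lymphoid tissue, of 0.37 and -0.03. The probe of Pla2g2e was not well above background in any channel. Among the 5 measured genes of the row, only Pla2g5 and Pla2g2a had the same sign on both arrays.

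Pla2g2a encodes the secreted phospholipase A2 that Paneth cells release against bacteria, and several inbred mouse strains are known to carry a disrupted copy. Its probe A_51_P256632 (chr4:138390766-138390825) had log2 intensities of 10.91 and 10.76 in the knockout-labelled RNA and 11.05 and 11.12 in the wild-type-labelled RNA. The uncorrected mean signals overlap, at 2008 and 1533 in the knockout-labelled RNA and 1980 and 2476 in the wild-type-labelled RNA. The ratios of -0.14 and -0.36 differ, with a mean of -0.25 ± 0.15. With each array centred on its median in place of loess, the ratio of replicate 1 was 0.01, so that the sign there depends on the normalization. Of the Paneth cell markers, 4 were matched on the array by name, and the defensin genes of the list were not. All 4 were measured, with 3 lower on both arrays and 1 opposite, and a median of -0.29. With marked outlier spots kept the median was -0.09. Lyz1 (lysozyme) had a ratio of -0.50 ± 0.40, Itln1 (intelectin) -0.34 ± 0.42 and Ang4 (angiogenin 4) -0.23 ± 0.20. The summed intensity of the Paneth list was 262000 and 249000 in the knockout-labelled RNA against 327000 and 323000 in the wild-type-labelled RNA. The part of Paneth cells in the Pla2g2a ratio was not tested.

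Pla2g1b, the pancreatic digestive phospholipase A2, was the one gene with no measured probe. A_51_P280893 (chr5:115924590-115924649) was well above background only in Cy3, the knockout-labelled RNA in replicate 1 and the wild-type-labelled RNA in replicate 2. Its ratios were 0.06 and -0.01 here and 0.80 and -0.75 by the software, which is the Cy3 side on both arrays. Of 13 exocrine pancreas genes on the array, 10 were measured, and Pnlip, Cpa1 and Cela2a were not. In that list 0 genes were higher and 4 lower on both arrays, with a median of -0.10 and summed intensities of 32500 and 30300 against 36300 and 39100. Pnliprp1 (a lipase-related protein) had a ratio of -0.46 ± 0.04, Cela3b (an elastase) -0.24 ± 0.09 and Clps (colipase) -0.22 ± 0.02.

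The other secreted members had mean ratios close to 0. Pla2g12b, a catalytically inactive relative known for its part in loading lipoproteins with lipid in liver and gut, had log2 intensities of 12.35 and 12.31 against 12.50 and 12.53. Its probe A_51_P184385 (chr10:58884374-58884433) was lower on both arrays in the knockout-labelled RNA, with ratios of -0.15 and -0.23 and a mean of -0.19 ± 0.05. Pla2g12a, a widely expressed secreted enzyme, has 2 probes that differ. A_52_P87964 (chr3:129597769-129597828) had ratios of -0.12 and -0.15, with a mean of -0.13 ± 0.02. A_51_P207550, whose ends are 10005 bases apart (chr3:129581844-129591848), had ratios of 0.33 and -0.38, with a mean of -0.02 ± 0.50. The first had the same sign on both arrays and the second opposite signs, and with median centring the first too had opposite signs, 0.05 and -0.35. The scanner software gave -0.08 and -0.03 for the first, with errors of 0.20, and 0.01 and -0.38 for the second, with errors of 0.21.

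The probes of Pla2g10 and Pla2g2f had opposite signs on the arrays. Pla2g10, a secreted enzyme of high activity on phosphatidylcholine that is known from the colon, had log2 intensities of 9.46 and 9.79 in the knockout-labelled RNA and 9.91 and 9.37 in the wild-type-labelled RNA. At A_51_P380451 (chr16:13715266-13715325, minus strand) Cy5 was the brighter dye on both arrays, so that the ratios were -0.44 and 0.42 and the mean -0.01 ± 0.61. Pla2g2f, known best from skin, had log2 intensities of 7.61 and 7.65 against 7.39 and 7.84. Cy3 was brighter on both arrays at A_52_P114691 (chr4:138306546-138306605, minus strand), with ratios of 0.22 and -0.19 and a mean of 0.01 ± 0.29. For both genes the SD over arrays is above 0.162, the median SD of all measured probes.

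The intracellular members had mean ratios within 0.09 of 0. Pla2g4a is the cytosolic phospholipase A2 that frees arachidonate, and its 2 probes, both with 38.3% GC, go with opposite dyes under most of the processing. A_51_P402760 (chr1:151677133-151677192, minus strand) had mean signals of 1865 against 1119 in replicate 1 and of 958 against 2005 in replicate 2. The brighter channel was Cy3 both times, so that the ratios were 0.56 and -0.73 and the mean -0.09 ± 0.91, the largest SD among the members. A_52_P660648, with ends 10485 bases apart (chr1:151677294-151687778), had Cy5 brighter after normalization, with ratios of -0.18 and 0.11 and a mean of -0.04 ± 0.21. Its ratios were -0.01 and -0.13 with median centring and -0.18 and -0.03 with marked spots kept, so that it followed no dye there. Either array by itself would have put A_51_P402760 more than 0.5 from 0, in opposite directions. Pla2g6, the calcium-independent phospholipase A2 of membrane upkeep, had ratios of -0.10 and -0.06 at A_51_P464860 (chr15:79117185-79117244, minus strand), with a mean of -0.08 ± 0.03, and one sign turned with median centring (0.05 and -0.23).

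**Figure D4:**
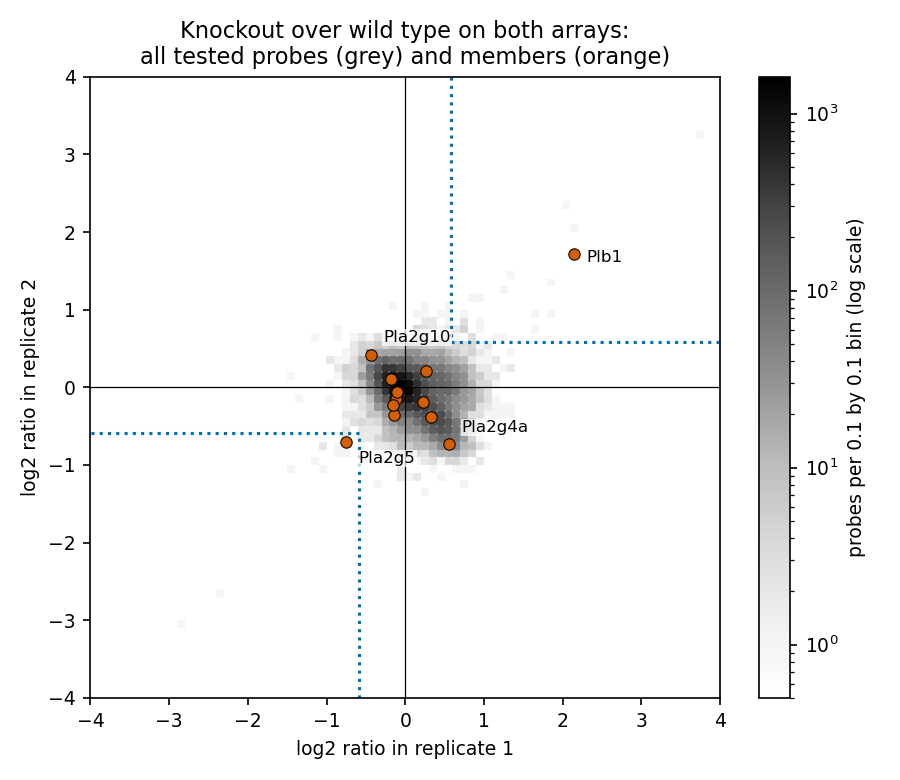
Log2 ratio in replicate 1 against replicate 2 for all 29047 measured probes, as grey bins of 0.1 by 0.1 on a log colour scale, with the 12 measured member probes in orange. Genotype differences lie along the rising diagonal and dye differences along the falling one. Plb1 and Pla2g5 are in the dotted corners that hold probes at least 1.5-fold apart on both arrays, and Pla2g4a A_51_P402760 and Pla2g10 lie on the dye diagonal.

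Some probes elsewhere on the array differed more by dye. Among all measured probes, 244 (0.84%) differed by 1.5-fold or more with the same dye brighter on both arrays, and 0 of the 12 member probes did. That 0 depends on the normalization. With median centring Pla2g4a A_51_P402760 had ratios of 0.72 and -0.97, beyond 1.5-fold on both arrays. Each array was also looked at by itself: with replicate 2 alone, Pla2g4a A_51_P402760 joined Pla2g5 among the probes at least 1.5-fold lower, which gives 2 in place of 1.

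The other genes of phospholipid breakdown and repair were taken from fixed lists, to see what surrounds these enzymes in the same RNA. In the fit by limma over all 29047 probes, 0 were called at an adjusted p under 0.05 (0.0%), with 353 at an unadjusted p under 0.05 and a smallest adjusted p of 0.597. The fit had 1 residual degree of freedom and no dye term, so that dye differences counted as spread. A gene that was not called is therefore not shown to be unchanged. With a background offset of 0 limma called 30 probes, and with the scanner software's ratios 80. Of 75 listed genes on the array 69 were measured, 0 were called, under these settings too, and 3 had an unadjusted p under 0.05. None was at least 1.5-fold apart on both arrays.

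Among the other phospholipases A2, related hydrolases and their receptor, 16 of 19 genes were measured, with 2 higher on both arrays, 2 lower and 12 opposite, and a median of 0.01. Pla2g4c, a relative of Pla2g4a, had ratios of 0.26 and 0.96, with a mean of 0.61 ± 0.49. Pnpla7, a lysophospholipase of the patatin family, had 0.85 and 0.04, with a mean of 0.44 ± 0.58. Pafah1b2, a subunit of an enzyme that inactivates platelet-activating factor, had a mean of -0.20 ± 0.10. The ratios of Pla2g4c and Pnpla7 differ between arrays by more than their means.

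Lysophospholipases and glycerophosphodiesterases, which take apart what the members leave, had 12 of 14 genes measured, with 3 higher on both arrays, 1 lower and 8 opposite, and a median of -0.03. Besides Gpcpd1, Gdpd5 had a mean of 0.06 ± 0.01, which became -0.01 at its lowest over the alternatives, and Gdpd3 one of -0.08 ± 0.10. Of the acyltransferases that put a fatty acid back on a lysophospholipid, 13 of 13 were measured, with 2 higher, 2 lower and 9 opposite, and a median of 0.03. There Agpat4 had a mean of 0.18 ± 0.19, Mboat1 of -0.13 ± 0.08 and Lclat1 of -0.05 ± 0.03.

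Of the enzymes that use freed arachidonate, 15 of 16 were measured, with 5 higher on both arrays, 2 lower and 8 opposite, and a median of 0.02. Alox5ap, the partner that presents arachidonate to 5-lipoxygenase, had ratios of 1.01 and 0.51 and a mean of 0.76 ± 0.35. Alox5, that lipoxygenase, had 0.33 ± 0.15, and Hpgds, a prostaglandin D synthase, had 0.35 ± 0.18. None of these passed the test, and neither did any other measured probe. Mast cells and macrophages are among the cells that hold these enzymes and Pla2g5. Of their 9 markers, all measured, 2 were higher on both arrays, 0 lower and 7 opposite, with a median of -0.01. The higher ones were Mcpt2, at 0.11 ± 0.04, and Kit, at 0.05 ± 0.05. The summed intensity of that list was 4480 and 4510 in the knockout-labelled RNA against 4730 and 4430 in the wild-type-labelled RNA, which overlap. Other cells that hold these enzymes were not looked at, and the part of cell makeup in these ratios was not tested.

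Of the phospholipases C and D, 13 of 13 were measured, with 4 higher on both arrays, 1 lower and 8 opposite, and a median of 0.05. Pld1, which makes phosphatidic acid, had a mean of 0.22 ± 0.16, Plcg2 of 0.14 ± 0.06 and Plce1 of -0.28 ± 0.27. In each of the 5 lists more genes were opposite than agreed in sign, and of all measured probes 63.9% were opposite.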

How the data were processed

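Members and gene lists were chosen with earlier results of these data known. Per the file headers, the authors deposited spot intensity (mean pixel brightness and local background, uncorrected) as given by Agilent Feature Extraction 11.5.1.1; the submitters' processing notes name version 9.5. The deposited log10 ratio is the software's processed Cy5 over Cy3, and the deposited value table differs from these log10 ratios by at most 5e-04, has column medians of 0 and is not turned for the dye swap.

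Each array had 41174 gene probes on 43379 spots, with 133 and 222 marked outlier spots, left out. Background was corrected with normexp (offset 50) and ratios by loess, giving controls a weight of 0 (limma 3.58.1 in R 4.3.3), then turned to knockout over wild type. Marked spots were left out before the background fit, a step the plan did not name. All 15 member probes had 1 unmarked spot, and 1 had a software surrogate value. Both arrays share a slide, so no slide effect could be tested. Probes well above background for one genotype on both arrays entered limma's lmFit and eBayes against 0 (1 residual and 3.04 prior degrees of freedom, Benjamini-Hochberg). The code of the fit was run on simulated independent replicates of one spread. These arrays are not like that, so the simulation does not tell how the fit performs on them. For list genes the brightest measured probe was taken. Named are all members, Gpcpd1, and per list up to 3 genes of one sign with the largest smaller ratio. RefSeq (GRCm38.p6) was used for names only, for 29416 probes. Alternatives covered background, normalization, the source of ratios, marked spots, the dim filter, surface trends, the fold threshold, averaging a gene's probes and each array alone.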

Additional observations from a re-analysis of the deposited data

How the results depend on the processing

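The count of member probes at least 1.5-fold apart on both arrays was 2, with 1 higher (Plb1) and 1 lower (Pla2g5). At a 2-fold threshold it was 1, with 0 lower. Higher probes numbered 2 with a background offset of 0, with the scanner software's processed ratio and with the deposited value table, Plb1 A_52_P311519 being added. With either array left out the count lay between 2 and 3, the higher probes at 1, and the lower ones between 1 and 2. Probes called by limma were 0, but 30 with an offset of 0, 80 with the processed ratio, 82 with the value table and 5 with a surface over row and column removed; the cause was not tested. Over all settings 0 of the 69 or 75 pathway genes were called, with 1 to 6 at an unadjusted p under 0.05. Over 84 means of measured member probes, with both arrays kept, 78 kept their sign, and the others were of Pla2g2f, Pla2g12a A_51_P207550 and Pla2g10, all with means of at most 0.06 from 0. With an array left out, the 5 probes of opposite signs turn with the array kept, the furthest being Pla2g4a A_51_P402760 at -0.73 and 0.56. Of 105 means over all member probes, with both arrays kept, 25 moved by more than 1 SD. With median centring 3 member probes were lower on both arrays and 7 opposite. The mean of the measured Plb1 probes was 1.08, which takes in A_52_P311519, whose wild-type side was not well above background. The measured Pla2g12a probes had a mean of -0.08. The medians of several lists lie near 0 and change sign with the scaling. Signal over background limits the dim Plb1 probes and Pla2g1b.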

Other observations

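Of the 9 marker lists read beside these enzymes, the skeletal muscle list had the median furthest from 0. Of 10 genes, all measured, 7 were higher on both arrays, 2 lower and 1 opposite. At least 1.5-fold higher on both were 5, beside 0.12% of all measured probes. The list was chosen with earlier results of these data known, so that count is no evidence about these genes. The median was 0.65, between 0.37 and 1.33 over the alternatives. Their summed intensity was 4090 and 3800 in the knockout-labelled RNA against 2580 and 2480 in the wild-type-labelled RNA. Myh4 (a fast myosin heavy chain) had a ratio of 2.18 ± 0.23, Tnnc2 (fast troponin C) 1.18 ± 0.62 and Tnni2 (fast troponin I) 0.90 ± 0.13. The size of the ratios varies with the processing, as for Myh1, with means of 0.44 to 3.07 over the alternatives. The 2 lower ones, named after their values were seen, were Acta1 at -0.07 ± 0.09 and Ckm at -0.07 ± 0.08. Of 8 gut smooth muscle genes 0 were higher and 1 lower on both arrays, with a median of -0.04. The lower one was Smtn, at -0.05 ± 0.04. Of 6 goblet cell genes all were opposite, with a median of 0.05.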
